A study of Mus musculus with 6 samples.

Results

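Messenger RNA of 9 complement and LPS-sensing genes, namely *Lbp*, *Cd14*, *Tlr4*, *Tlr2*, *Myd88*, *C3*, *C1s1*, *Serping1* and *Cd55*, was followed in mouse podocytes under high glucose (HG) with and without fibroblast growth factor 1. The genes were found by symbol among the 24469 loci of the deposited table, and each symbol had 1 locus. All 6 libraries were made from MPCs, mouse podocytes kept as a conditionally immortalized line. Podocytes are epithelial cells that cover the glomerular capillaries. Cells at passages 10 to 15 had been grown with interferon gamma (50 U/mL) in 5.5 mM glucose at 33 °C and differentiated without interferon gamma at 37 °C for 10 days. After serum starvation for 12 h, the HG group (n = 2) received 25 mM glucose for 12 h with no pretreatment. The rFGF1 WT group (n = 2) and the rFGF1 ΔHBS group (n = 2) were pretreated for 1 h with 100 ng/mL of the wild-type protein or of a mutant, a partial agonist in which heparan sulfate gives less help to the dimerization of FGF receptors, and then received the same HG. The labels also name D-mannitol as an osmotic control, and no library at normal glucose was used here, so these data do not give the response of the genes to HG itself. The labels do not say whether the replicates were separate cultures, so the p-values measure only the spread between these libraries, which may be technical.

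Lipopolysaccharide (LPS), the outer-membrane glycolipid of Gram-negative bacteria, is picked up by the LPS-binding protein, handed to CD14 and presented to the receptor complex of TLR4 and MD-2, which signals through the adaptor MyD88 to NF-κB. Complement is a cascade of plasma and locally made proteins that converges on the cleavage of C3, and soluble and membrane-bound regulators restrain it. Glomerular cells make several complement components themselves, and podocytes carry complement regulators and Toll-like receptors.

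The values are FPKM, the fragments assigned to a locus scaled by transcript length and by the number of fragments mapped in each library, so levels can be set beside each other per length. The 9 genes spanned a wide range of levels. *C3* had the highest mean over the 6 libraries, 49.7 FPKM, followed by *Lbp* at 19.0 FPKM. *Tlr2*, *Cd14* and *Myd88* followed at mean levels of 8.5, 8.0 and 7.3 FPKM, and their ranges over the libraries overlapped, so their order is not beyond the spread. The range of *Tlr2* also met that of *Lbp*, through 1 rFGF1 ΔHBS library. *Tlr4* had a mean of 0.975 FPKM. *C1s1* and *Serping1*, at mean levels of 0.144 and 0.119 FPKM, overlapped each other and lay below every library of *Tlr4*. *Cd55* was listed at 0 in 4 of the 6 libraries. A gene was tested where its mean reached 1 FPKM, which 10562 loci did, and so 5 of the 9 genes were tested and 4 (*Tlr4*, *C1s1*, *Serping1* and *Cd55*) were not.

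Which of these genes differed with either protein was asked with limma on log2(FPKM + 1), and a gene was called at a Benjamini-Hochberg adjusted p under 0.05 over all 10562 loci. With rFGF1 WT against HG, 1 of the 5 tested genes was called, *Lbp*, which was lower. With rFGF1 ΔHBS against HG, 1 of 5 was called, again *Lbp*, and again lower. Over all loci tested, 6.19% were called with rFGF1 WT (2.94% lower and 3.26% higher) and 6.26% with rFGF1 ΔHBS (2.89% lower and 3.37% higher), so a single call among 5 genes tells little about the group. None of the 5 was called and changed at least 2-fold, as 1.01% and 0.899% of all tested loci were. Between the proteins, 0 of the 5 genes were called by limma and 0 had an unadjusted p under 0.05, beside 0.549% of all loci called and 514 of 10562 loci at an unadjusted p under 0.05. The median log2 fold change of the 5 genes was -0.27 for rFGF1 WT and -0.13 for rFGF1 ΔHBS, beside -0.04 and -0.04 over all tested loci. Both comparisons with HG share the same 2 HG libraries.

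**Figure D1:**
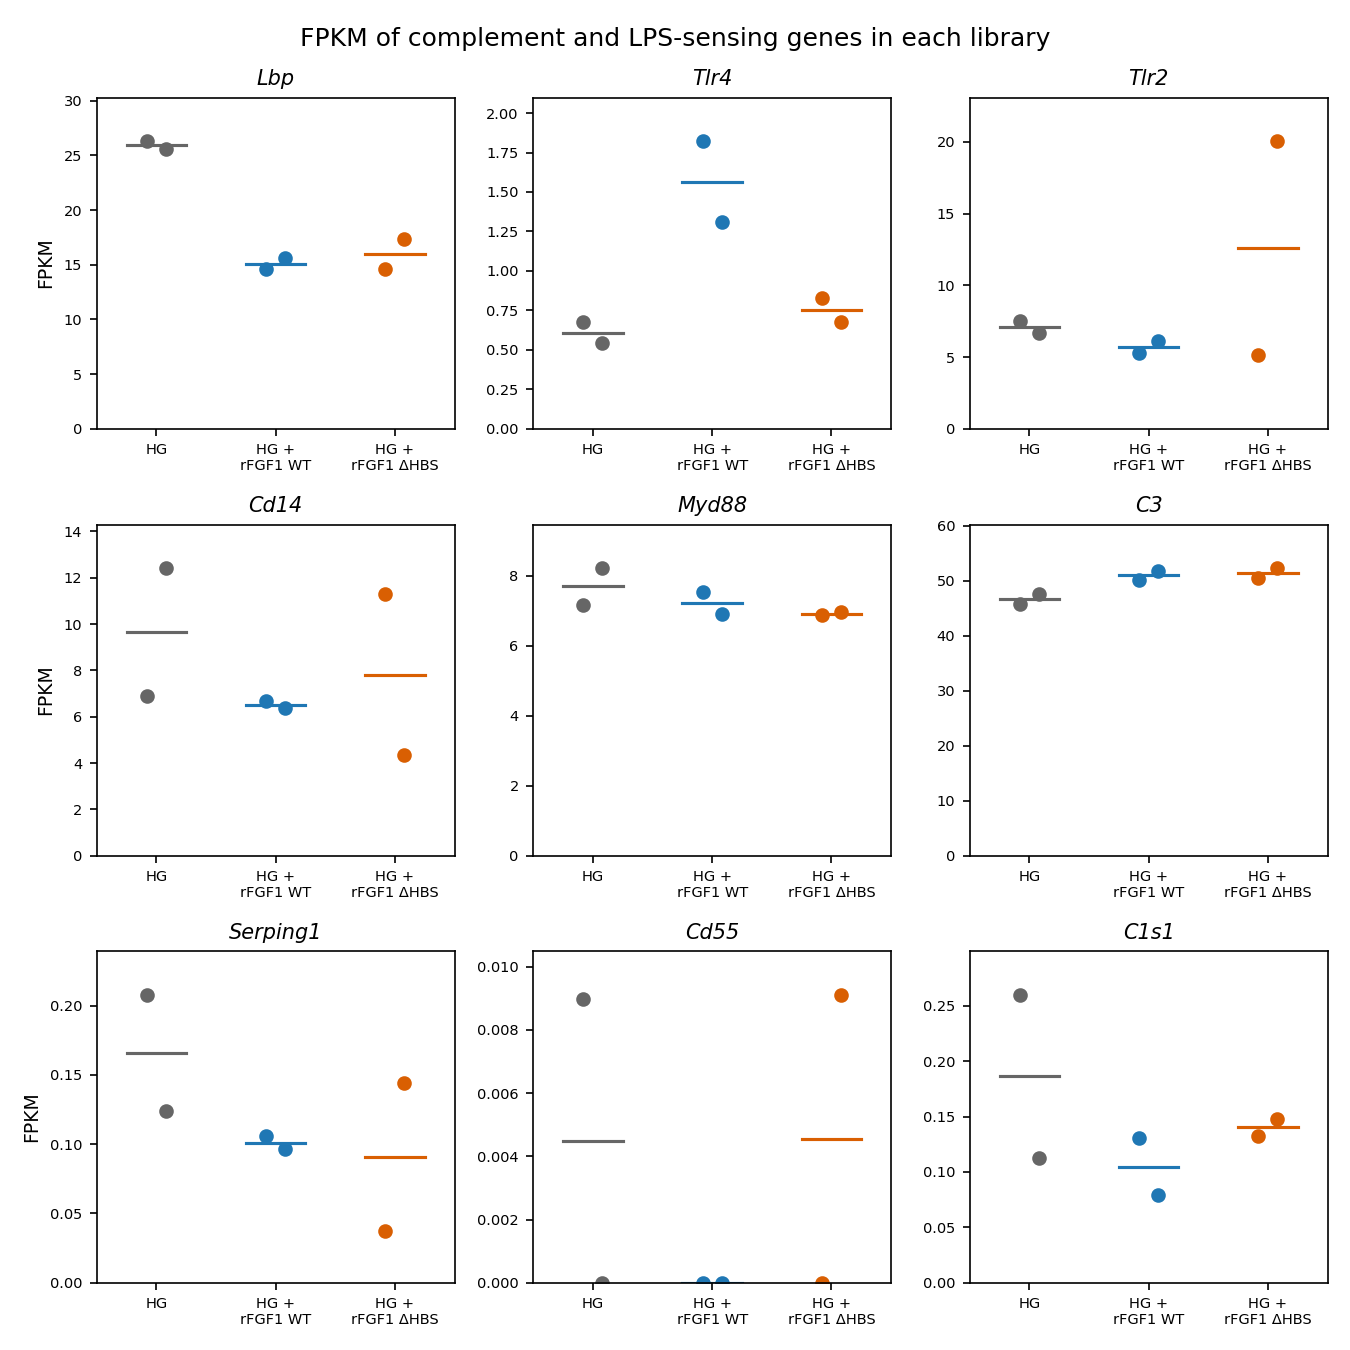
FPKM of the 9 genes in each of the 6 libraries, 1 panel per gene with its own vertical axis from 0. Points are libraries and bars are group means (n = 2). *Lbp* lies between 25.6 and 26.3 FPKM under HG and between 14.6 and 17.4 FPKM with either protein, whereas *Tlr2* and *Cd14* vary widely between replicates.

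The LPS-binding protein, encoded by *Lbp*, is an acute-phase protein made mainly in the liver. The *Lbp* locus (MSTRG.8148 in the table) lies on the forward strand of chromosome 2 of GRCm38, chr2:158306493-158332852, and the longest coding transcript in GENCODE M21 has 15 exons. *Lbp* measured 26.3 and 25.6 FPKM in the HG libraries, 14.6 and 15.6 FPKM after rFGF1 WT, and 14.6 and 17.4 FPKM after rFGF1 ΔHBS. All 4 libraries with a protein were thus below both HG libraries. The mean was 26.0 ± 0.541 FPKM under HG (SD, n = 2), 15.1 ± 0.725 FPKM with rFGF1 WT and 16.0 ± 1.99 FPKM with rFGF1 ΔHBS, that is, 1.72-fold and 1.62-fold lower than under HG. On the log2(FPKM + 1) scale, on which low genes change less than in FPKM, *Lbp* changed by -0.74 with rFGF1 WT (standard error 0.10, 95% confidence interval -1.01 to -0.48, limma adjusted p = 0.0308). With rFGF1 ΔHBS it changed by -0.67 (standard error 0.10, interval -0.94 to -0.41, limma adjusted p = 0.0376). The difference between the proteins was 0.07 (interval -0.19 to 0.34, limma adjusted p = 0.941), which does not show that they act alike. The pooled within-group SD of *Lbp*, 0.106 on the log2 scale, was close to the median of 0.105 over all tested loci. In bulk RNA, fewer cells that carry a transcript and less of it per cell cannot be told apart.

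Both calls of *Lbp* lay close to the threshold. Without the filter on low values, the limma adjusted p was 0.0586 for rFGF1 WT and 0.0682 for rFGF1 ΔHBS, and with only the 4 libraries compared it was 0.0478 and 0.0837. A block for the replicate number ended both calls (0.0790 and 0.0855). Without HG replicate 1 or 2 the adjusted p with rFGF1 WT was 0.128 or 0.117, and without rFGF1 WT replicate 1 or 2 it was 0.128 or 0.102. With rFGF1 ΔHBS, leaving out any 1 of the 6 libraries ended the call, at adjusted p values from 0.0575 (without rFGF1 ΔHBS replicate 2) to 0.149 (without HG replicate 1). The log2 fold change stayed below 0 in each of these fits, from -0.79 to -0.70 with rFGF1 WT and from -0.79 to -0.55 with rFGF1 ΔHBS.

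The primers with which the study amplified *Lbp* show which part of the gene its PCR reads, and they are given 5′ to 3′.
Lbp forward: gatcaccgacaagggcctg
Lbp reverse: ggctatgaaactcgtactgcc
Matched to the GENCODE M21 transcripts, the forward primer lies in exon 1 (chr2:158306768-158306786), and the reverse primer spans the junction of exons 2 and 3, between 158308777 and 158309602. Both were found in 4 of the 5 annotated *Lbp* transcripts, with a product of 143 bases, and neither was found in the remaining transcript of 436 bases. All 5 transcripts belong to the *Lbp* locus of the table, so its FPKM covers the spliced forms that the PCR reads and 1 that it does not.

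The receptors varied more. CD14, a membrane-anchored and soluble co-receptor, hands LPS to TLR4. *Cd14* lies on the reverse strand of chromosome 18 (chr18:36725067-36726798). It measured 6.89 and 12.4 FPKM under HG, 6.69 and 6.36 FPKM after rFGF1 WT, and 11.3 and 4.35 FPKM after rFGF1 ΔHBS. The rFGF1 WT libraries lay below both HG libraries, by a small margin from the lower of them, and the rFGF1 ΔHBS libraries lay on both sides of all the others except HG replicate 2. The log2 fold change against HG was -0.45 with rFGF1 WT (standard error 0.49, limma adjusted p = 0.610) and -0.34 with rFGF1 ΔHBS (standard error 0.49, adjusted p = 0.705). The intervals, -1.76 to 0.85 and -1.65 to 0.96, both reach past a 2-fold decrease and also hold 0. Without HG replicate 2 the change was -0.07 for rFGF1 WT and 0.04 for rFGF1 ΔHBS, and without rFGF1 ΔHBS replicate 2 the latter was 0.26. Without HG replicate 1 the changes were larger, -0.84 and -0.73, and without rFGF1 ΔHBS replicate 1 that of rFGF1 ΔHBS was -0.94, none of them called.

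*Tlr4*, the signalling receptor for LPS, lies on the forward strand of chromosome 4 (chr4:66827584-66930284). It was listed at 0.676 and 0.540 FPKM under HG, at 1.82 and 1.31 FPKM after rFGF1 WT, and at 0.825 and 0.678 FPKM after rFGF1 ΔHBS. The rFGF1 WT libraries were the highest, and those with rFGF1 ΔHBS lay just above HG, by 0.678 against 0.676 FPKM at the nearest. The mean with rFGF1 WT was 2.57-fold that under HG, and the mean with rFGF1 ΔHBS was 1.24-fold. Because *Tlr4* was below the filter, it was taken from the fit over all 24469 loci, where the log2 fold change was 0.67 with rFGF1 WT (standard error 0.14, limma adjusted p = 0.148) and 0.12 with rFGF1 ΔHBS (adjusted p = 0.741). The difference between the proteins was -0.54 there (standard error 0.14, unadjusted p = 0.0170, limma adjusted p = 0.791). In a fit with a lower filter, a mean of at least 0.5 FPKM, chosen after seeing the data, the adjusted p was 0.0755 with rFGF1 WT and 0.697 between the proteins, so *Tlr4* was not called in any fit that held it.

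TLR2 recognizes bacterial lipoproteins together with TLR1 or TLR6. *Tlr2*, on the reverse strand of chromosome 3 (chr3:83836272-83841767), measured 7.53 and 6.64 FPKM under HG, 5.31 and 6.11 FPKM after rFGF1 WT, and 5.17 and 20.1 FPKM after rFGF1 ΔHBS. A single library, rFGF1 ΔHBS replicate 2, stood above the other 5, while its replicate was the lowest of all. The log2 fold change was -0.27 with rFGF1 WT (limma adjusted p = 0.821) and 0.50 with rFGF1 ΔHBS (adjusted p = 0.658). Without rFGF1 ΔHBS replicate 2 the latter became -0.39 (adjusted p = 0.241), and without rFGF1 ΔHBS replicate 1 it became 1.38 (adjusted p = 0.0600), so its direction rests on 1 library. The pooled within-group SD of *Tlr2*, 0.730, was larger than that of 94.0% of the tested loci, and that of *Cd14*, 0.582, was larger than that of 91.8%.

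MyD88 is the adaptor shared by most Toll-like receptors and the interleukin-1 receptor family. *Myd88*, on the reverse strand of chromosome 9 (chr9:119335934-119341411), measured 7.16 and 8.23 FPKM under HG, 7.52 and 6.92 FPKM after rFGF1 WT, and 6.86 and 6.95 FPKM after rFGF1 ΔHBS. Its log2 fold change was -0.08 with rFGF1 WT (interval -0.31 to 0.15) and -0.13 with rFGF1 ΔHBS (interval -0.37 to 0.10), with limma adjusted p values of 0.617 and 0.416. Leaving out 1 library moved the latter change between -0.22 and -0.046. *Acaa1a* overlaps *Myd88* on the opposite strand, and *Slc22a14* spans it on the same strand. Fragments of overlapping genes may be divided in ways the table does not show, since the use of strand is not given in the sources used here.

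Of the complement genes, *C3*, which encodes the central component, was abundant and varied the least of the 5 tested. *C3* lies on the reverse strand of chromosome 17 (chr17:57203970-57228136), with 41 exons in its longest coding transcript. It measured 45.7 and 47.5 FPKM under HG, 50.2 and 51.7 FPKM after rFGF1 WT, and 50.5 and 52.3 FPKM after rFGF1 ΔHBS. All 4 libraries with a protein were above both HG libraries, by means 1.09-fold and 1.10-fold those of HG. The pooled within-group SD of *C3* was 0.0345 on the log2 scale, and only 7.48% of the tested loci had a smaller one. Even so, the log2 fold changes of 0.13 (standard error 0.05, interval -0.01 to 0.26, limma adjusted p = 0.217) and 0.14 (standard error 0.05, interval 0.01 to 0.27, limma adjusted p = 0.185) did not pass the threshold. The difference between the proteins was 0.01 (interval -0.12 to 0.15).

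The other 3 complement genes were near the floor of the table. C1s, encoded by *C1s1* (chr6:124530345-124542359, reverse strand), is a serine protease of the first component of the classical pathway, and the C1 inhibitor, encoded by *Serping1* (chr2:84765387-84775444, reverse strand), blocks it. *C1s1* was listed at 0.260 and 0.113 FPKM under HG, 0.131 and 0.0789 FPKM after rFGF1 WT, and 0.133 and 0.148 FPKM after rFGF1 ΔHBS. *Serping1* was listed at 0.208 and 0.124 FPKM under HG, 0.106 and 0.0963 FPKM after rFGF1 WT, and 0.0375 and 0.144 FPKM after rFGF1 ΔHBS. For both genes the libraries of HG and rFGF1 ΔHBS overlapped, and no limma adjusted p against HG in the fit over all loci was under 0.609. The antisense gene *Gm16567* covers most of *C1s1* on the opposite strand.

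CD55, or decay-accelerating factor, is the membrane regulator that dissociates the C3 convertases. *Cd55* (chr1:130439027-130462744, reverse strand) was listed at 0.00897 FPKM in HG replicate 1, at 0.00911 FPKM in rFGF1 ΔHBS replicate 2 and at 0 in the other 4 libraries. The ratio of the values above 0 was 1.02, which is also the commonest ratio between these 2 libraries at loci under 0.05 FPKM, where equal numbers of fragments give that ratio. No fold change is given for *Cd55*.

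Counting libraries rather than calls, the groups did not overlap for 6 of the 9 genes with rFGF1 WT against HG, beside 40.9% of all 24469 loci. These were *Lbp*, *Tlr2*, *Cd14* and *Serping1*, lower, and *Tlr4* and *C3*, higher. With rFGF1 ΔHBS against HG it was 4 of 9 beside 40.1% of all loci, namely *Lbp* and *Myd88*, lower, and *Tlr4* and *C3*, higher. Between the proteins it was 2 of 9 beside 27.7%, with *Tlr4* lower and *C1s1* higher with rFGF1 ΔHBS. With 2 libraries against 2, an exact permutation test of 1 gene cannot go below p = 0.333.

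The loci whose pattern over the 6 libraries was most like that of *Lbp* were *Gatsl2*, *Xpc* and *Zfp503*, each with a Pearson r of log2(FPKM + 1) of 0.996 to 0.997. *Gatsl2*, for example, measured 13.6 and 13.6 FPKM under HG and 10.2 to 11.3 FPKM in the other 4 libraries. Most like *C3* were *Itpr1*, *Fblim1* and *Ctgf*, with r from 0.992 to 0.996, and *Ctgf* ranged from 8.68 FPKM in HG replicate 1 to 57.3 FPKM in rFGF1 ΔHBS replicate 2. These r describe 6 libraries in 3 groups and were the highest among 10562 loci.

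The other genes of these pathways were counted over 8 lists of 134 genes, of which 116 were in the table and 67 loci were tested. With rFGF1 WT against HG, 9 of the 67 were called (6 higher and 3 lower), with rFGF1 ΔHBS 11 (7 higher and 4 lower), and between the proteins limma called 0, with 3 of 67 at an unadjusted p under 0.05, beside 514 of 10562 loci. The shares called against HG were 13.4% and 16.4%, beside the 6.19% and 6.26% of all tested loci. The lists were chosen with earlier results of these data known, and the part of that choice in these shares was not tested. The counts of 9 and 11 both include *Itgb2*, which passed the filter only because of its level in the libraries with a protein. The median log2 fold change was -0.02 for rFGF1 WT and -0.03 for rFGF1 ΔHBS, beside the -0.04 of all tested loci.

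Of the 52 genes of the 4 complement lists, 11 loci were tested and 2 were called in each comparison with HG. *Masp1*, a serine protease of the lectin pathway, fell from a mean of 4.54 FPKM under HG to 2.12 FPKM with rFGF1 WT and 2.03 FPKM with rFGF1 ΔHBS (limma adjusted p = 0.0250 and 0.0235). *Itgb2*, the integrin β2 subunit of complement receptors 3 and 4, rose from 0.434 FPKM to 1.26 and 1.54 FPKM (adjusted p = 0.0353 and 0.0225), although *Itgam*, the partner subunit of receptor 3, was at most 0.0407 FPKM in any library. *Itgb2* passed the filter, at a mean of 1.08 FPKM over the 6 libraries, only because of its level in the libraries with a protein, and in the fit over all loci its adjusted p was 0.0758 and 0.0495, so its call with rFGF1 WT rests on the filter. Without *Itgb2*, 1 of the other 10 complement loci tested was called with each protein. That locus was *Masp1*, and its calls depend on the filter as well. Both were lost in the fit over all loci (limma adjusted p = 0.0566 for the mutant and 0.0636 for the wild-type protein). *C1rb*, *Cfp*, *Clu*, *Cd59a* and *C1qbp*, which were among the most abundant genes of their lists, were not called. *C2* and *Cfb* share 1 merged locus, and it and *C8g* were below the filter.

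Among the 19 other LPS and Toll-like receptors and co-receptors, 5 were tested and limma called 0 in any comparison, with 2, 0 and 0 at an unadjusted p under 0.05, which 2616, 2632 and 514 of the 10562 loci had. *Ly96*, which encodes MD-2, the partner of TLR4 in binding LPS, measured between 1.42 and 1.76 FPKM. *Hsp90b1*, a chaperone of Toll-like receptors whose locus is merged with *Gm15344*, was the most abundant at a mean of 180.2 FPKM, followed by *Cnpy3* at 10.7 FPKM. Of the 23 signalling genes, all tested, 1 was called with rFGF1 WT, the kinase gene *Irak1*, higher by a log2 fold change of 0.48 (limma adjusted p = 0.0458), and none was called with rFGF1 ΔHBS (adjusted p = 0.0960 for *Irak1*), while 4 and 2 of the 23 had an unadjusted p under 0.05, beside 2616 and 2632 of all 10562 loci. The difference of *Irak1* between the proteins did not pass (adjusted p = 0.905). *Rela* and *Tab2*, the most abundant of this list, were not called. Of 9 tested genes listed as inhibitors, 1 was called with each protein, *Peli1*, a ubiquitin ligase also known to carry Toll-like receptor signals through the adaptor TRIF, so its place in this list is open. It rose by 1.01 and 0.85 (adjusted p = 0.0159 and 0.0206), while the abundant *Nfkbia* and *Tnip1* were not called.

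Among 19 tested NF-κB target genes that LPS induces in other cells, calls went in both directions. They numbered 5 for rFGF1 WT and 8 for rFGF1 ΔHBS (26.3% and 42.1%, beside 6.19% and 6.26% of all tested loci). This list, too, was chosen with earlier results of these data known. *Lcn2*, *Ptgs2* and *Ccl2* rose with both proteins, by log2 fold changes of 1.20, 0.67 and 0.88 with rFGF1 WT and of 1.01, 0.63 and 0.89 with rFGF1 ΔHBS. *Nos2* and *Vcam1* fell with both, by 0.64 and 0.39 with rFGF1 WT and by 0.65 and 0.41 with rFGF1 ΔHBS. With rFGF1 ΔHBS, *Ccl7* (0.90, limma adjusted p = 0.0499) and *Tnfaip2* (1.10, adjusted p = 0.0455) were also higher and *Cxcl10* (-0.55, adjusted p = 0.0231) lower, and none of these 3 differed between the proteins past the threshold. *Csf1* and *Nfkb2*, the most abundant of the list, were not called. Of the 22 calls of *Lbp* and of list genes against HG, 17 were lost without the filter on low values, 18 with only the 4 libraries compared, 22 with the replicate block, and 19 to 22 when 1 library was left out, and none changed direction.

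**Figure D2:**
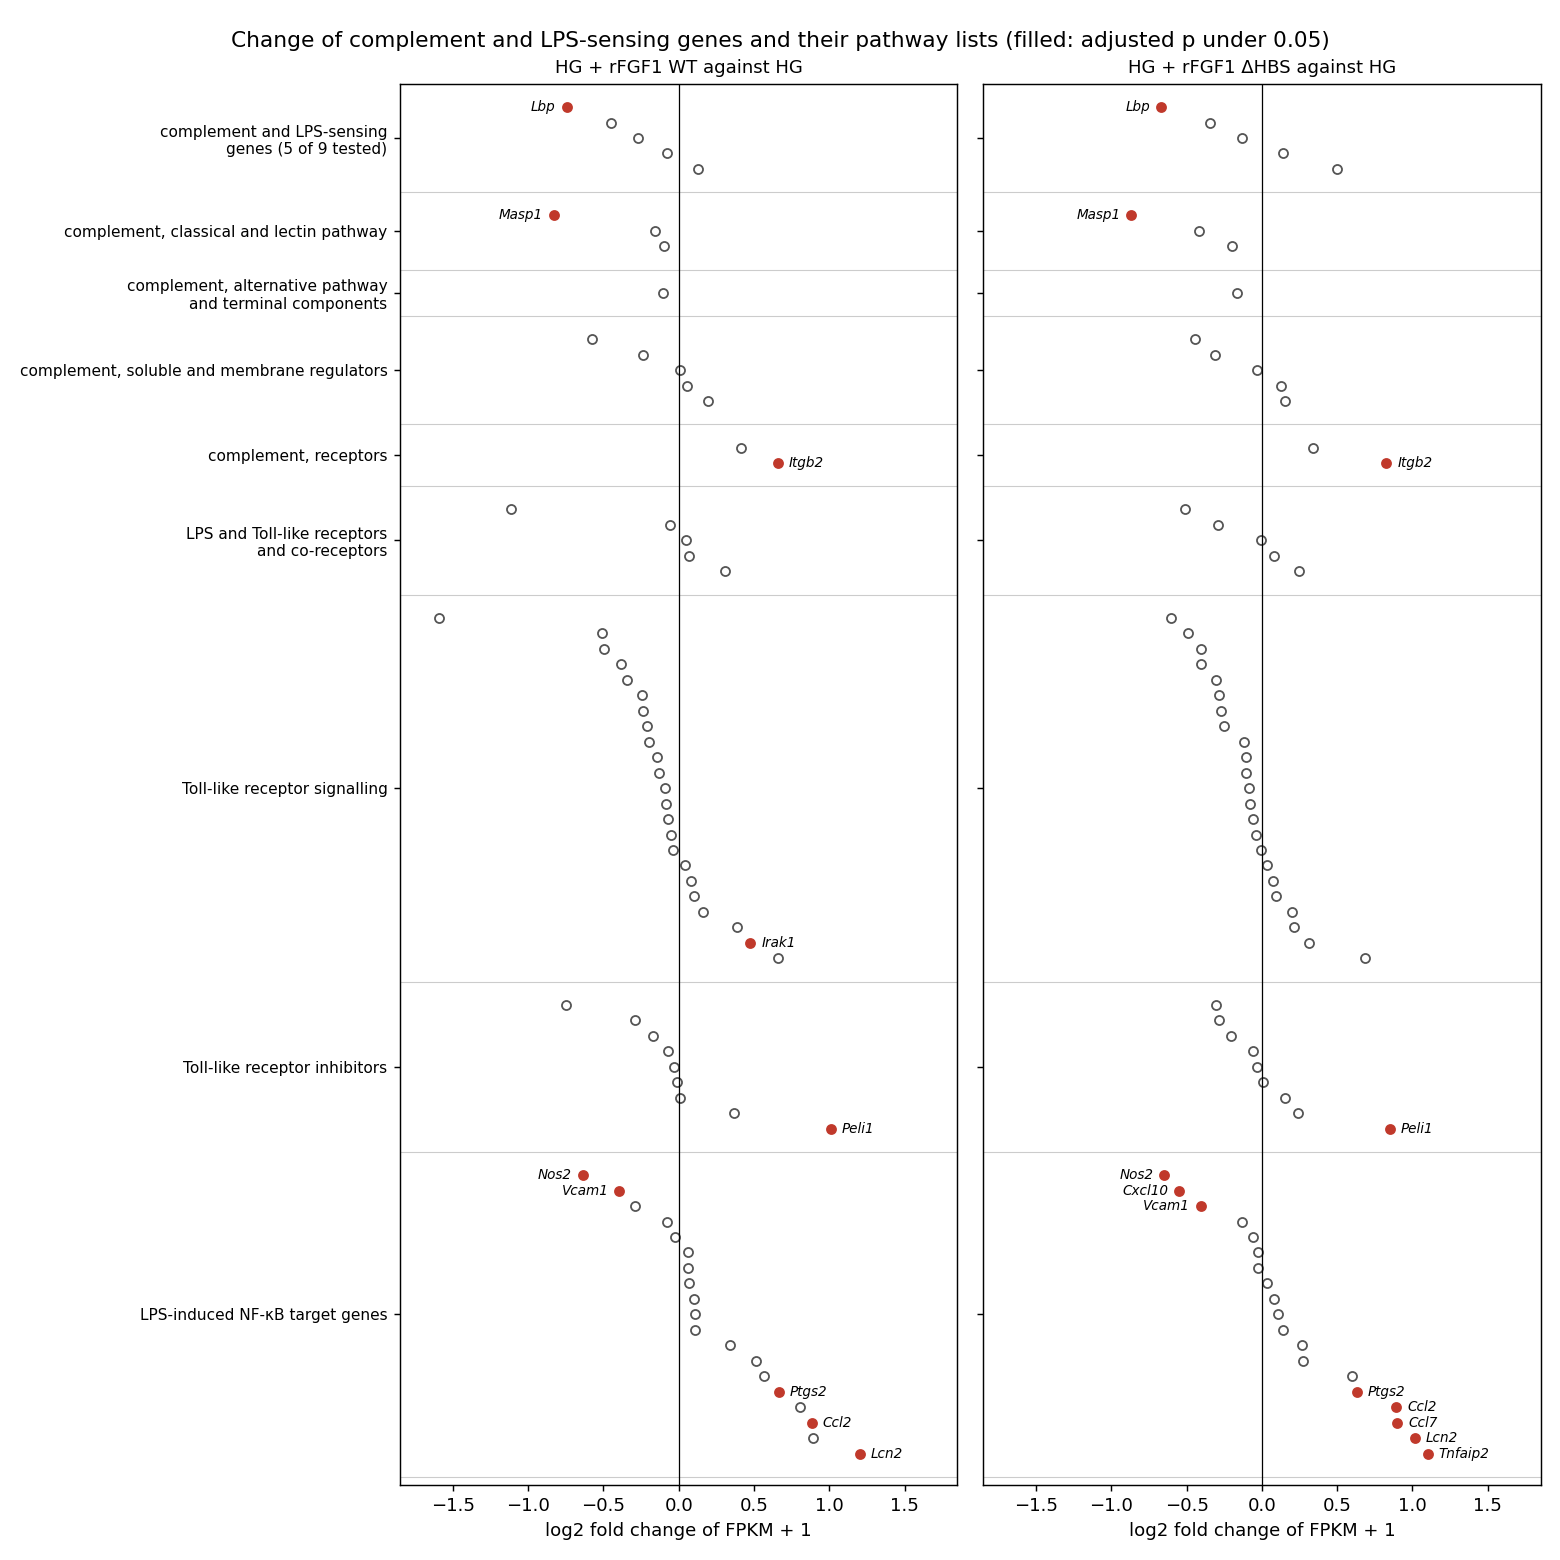
Log2 fold change of FPKM + 1 against HG for each tested gene, with rFGF1 WT (left) and rFGF1 ΔHBS (right), grouped by list and ordered by size within it. Each point is 1 locus from the limma fit over 6 libraries, filled where the adjusted p was under 0.05. *Lbp* is the only filled point among the 5 tested complement and LPS-sensing genes, at -0.74 and -0.67, and the NF-κB target genes hold filled points on both sides of 0.

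Because *Cd14*, *Tlr4* and *Itgb2* are typical of myeloid cells, cell type markers were read beside them. Of 13 leukocyte markers, 11 were in the table and 8 had a mean under 0.1 FPKM, among them the defining *Ptprc*, *Adgre1*, *Lyz2* and *Tyrobp*. Their summed level was 63.0 and 61.1 FPKM under HG, 69.9 and 67.1 FPKM after rFGF1 WT, and 71.4 and 71.3 FPKM after rFGF1 ΔHBS, with *Cd68* the most abundant. The *Cd68* locus was called higher with both proteins (log2 fold changes of 0.32 and 0.37, limma adjusted p = 0.0496 and 0.0363). It is merged with *Eif4a1*, which all cells express, and without it, a choice made after seeing the data, the sums were 9.88 and 11.0 FPKM under HG, 3.61 and 4.00 FPKM after rFGF1 WT, and 4.24 and 4.07 FPKM after rFGF1 ΔHBS. Most of this was *Csf1r*, which fell from a mean of 10.1 FPKM to 3.44 and 3.85 FPKM (limma adjusted p = 0.0114 and 0.0140). Without the merged locus the sums moved in the same direction as *Lbp*, and their part in its change was not tested. The 8 endothelial markers, *Cdh5* and *Pecam1* at their head, were all under 0.1 FPKM.

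Of 15 podocyte markers, 7 had a mean of at least 1 FPKM, led by *Actn4* and *Nes*, whereas *Wt1*, *Lmx1b* and *Ptpro* were under 0.1 FPKM, so the podocyte label rests on the first set. Their summed level was 229 and 222 FPKM under HG, 310 and 315 FPKM after rFGF1 WT, and 297 and 310 FPKM after rFGF1 ΔHBS. *Nes* was called with both proteins and *Kirrel* with rFGF1 WT, all higher, and with *Actn4* and *Cd2ap*, not called, they made up most of the rise of the sum. Not all markers rose. *Synpo* went from a mean of 9.91 FPKM under HG to 4.73 and 5.83 FPKM (limma adjusted p = 0.0787 and 0.131), and *Podxl* from 17.1 FPKM to 15.6 and 15.3 FPKM (adjusted p = 0.305 and 0.229), and neither was called. *Pdgfrb* and *Acta2* of the mesangial and fibroblast list and *Aqp1* and *Lrp2* of the tubular list were also present, at mean levels of 28.6, 14.5, 28.3 and 24.5 FPKM, and no gene of these lists was called. The tubular markers summed to 73.7 and 62.0 FPKM under HG and to between 40.8 and 50.1 FPKM in the other 4 libraries, and their part in the change of *Lbp* was not tested either.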

How the data were processed

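RNA-Seq of poly(A) RNA, sequenced from both ends of each fragment, covered 6 libraries of MPCs. The authors deposited 1 table of FPKM, and edgeR is the tool the methods give for summarizing FPKM. The submitters' processing notes name HISAT2 2.0, StringTie 1.3.0 and Bowtie 0.12.2 and the build mm8, with no order or role. Positions were therefore taken from GENCODE M21 (GRCm38) through gene names, and the Ensembl transcripts of all 9 loci were found there. Columns were assigned to libraries by the labels.

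The FPKM as deposited were fitted as log2(FPKM + 1) with limma 3.58.1 in R 4.3.3 (lmFit, contrasts and eBayes with a trend) over the 6 libraries and the 10562 loci with a mean of at least 1 FPKM, with 3 residual degrees of freedom. The fit was tested on simulated data. Of the 4 genes below the filter, *Tlr4*, *C1s1* and *Serping1* were taken from a fit over all loci, and *Cd55* was given by library only. Tables and figures were made with Python 3.11.15, pandas 2.3.3, numpy 2.4.6 and matplotlib 3.10.9.

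FPKM give no read totals, so the depth is unknown. FPKM summed to between 179594 and 185168 per library, which does not measure depth. At low loci the commonest ratio of FPKM to HG replicate 1, held by 11.0% to 13.8% of them, was 0.989 to 1.03. Across loci, which are not independent, replicates correlated with a Pearson r of 0.916 to 0.923, and libraries from different groups with 0.895 to 0.924.

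Named were the 9 genes, every list gene called in any comparison, the 2 most abundant genes of each list, and the 3 loci most like *Lbp* and *C3*; *Ly96*, *Itgam*, *Cd2ap*, *Synpo*, *Podxl* and the marker genes near 0 were added after their values were seen. The members and lists were chosen with earlier results of these data known. Alternatives were a pseudocount of 0.1, no filter or a mean of 5 FPKM, median-ratio scaling, quantile normalization, robust empirical Bayes, a replicate block, only the 4 libraries compared, and leaving out each library in turn. The calls of marker genes were not followed through these alternatives. Counts of calls kept or lost therefore cover *Lbp* and the pathway list genes only. The PCR and protein measurements and the mouse experiments were not analysed here.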

Additional observations from a re-analysis of the deposited data

How the results depend on the processing

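*Lbp* kept its direction against HG in every alternative run. The count of complement and LPS-sensing genes called with rFGF1 WT against HG was 1, and it became 0 with no filter and with the replicate block, and was 0 to 1 when 1 library was left out. With rFGF1 ΔHBS the count of 1 became 0 with no filter, with the replicate block, with only the 4 libraries compared and in each fit that left out 1 library. Between the proteins it was 0 throughout. A group left with 1 library was assumed to vary as the others do, which leaves 2 residual degrees of freedom. The replicate block and the fits of only the 4 libraries compared also leave 2 residual degrees of freedom. Without the filter more loci are adjusted over, and the spread is also estimated over them. What ended each call was not tested.

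Counts of pathway list genes called, 9 with rFGF1 WT and 11 with rFGF1 ΔHBS, became 2 and 3 with no filter, 4 and 6 at a mean of at least 5 FPKM, where fewer genes are tested, 3 and 1 with only the 4 libraries compared, and 0 and 0 with the replicate block. Leaving out 1 library gave 0 to 3 with rFGF1 WT, 0 to 1 with rFGF1 ΔHBS and 0 to 1 between the proteins, where the count was 0. Of the 22 calls of *Lbp* and list genes, 21 were kept with a pseudocount of 0.1, 21 with median-ratio scaling, 20 with quantile normalization and 21 with robust estimation, 0 to 3 were kept when a library was left out, and none changed direction in any alternative. The labels number the replicates alike and do not say whether same-numbered libraries were handled together. The deviations of same-numbered libraries from their group means correlated by -0.02, 0.10 and -0.05 across loci. Because loci are not independent and a shared handling may touch few of them, these values cannot decide whether the libraries are paired.

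Directions that turned were all of uncalled differences, each in fits that left out 1 library. The log2 fold change of *Tlr2* with rFGF1 ΔHBS ranged from -0.39 to 1.38 against HG and from -0.12 to 1.65 against rFGF1 WT, lowest without rFGF1 ΔHBS replicate 2 and highest without replicate 1. That of *Cd14* with rFGF1 ΔHBS ranged from -0.94 to 0.26 against HG (0.04 without HG replicate 2) and from -0.49 to 0.71 against rFGF1 WT. *Myd88* with rFGF1 WT ranged from -0.17 to 0.0090, the latter without HG replicate 2. Between the proteins, *Lbp* ranged from -0.046 to 0.19 and *C3* from -0.012 to 0.039 (-0.0076 without rFGF1 WT replicate 1). With a pseudocount of 0.1 and no filter, chosen after seeing the data, *Tlr4* was at 1.22 with rFGF1 WT (limma adjusted p = 0.144).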
